A study of Mus musculus with 9 samples.

Results

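Idh2, which encodes the NADP-dependent isocitrate dehydrogenase of mitochondria, was called lower in ST2 cells, the one call among 9 genes of the tricarboxylic acid (TCA) cycle. Idh2 was lower with rhWnt3a than with vehicle, a call that depended on the processing. It was lowest when OSMI was given with rhWnt3a, and that call against vehicle did not depend on the processing. The further step from rhWnt3a alone to rhWnt3a with OSMI was not called. The genes considered are 9 enzymes and subunits of the mitochondrial cycle, chosen by name (Cs, Idh2, Idh3a, Idh3b, Idh3g, Ogdh, Sucla2, Fh1 and Mdh2), of 54532 genes in the table. All 9 were found there and all 9 were among the 14004 genes with enough reads to be tested.

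ST2 is a mouse bone marrow stromal line, labelled as mesenchymal stem cells of wild-type genotype, and every library came from this line. Polyadenylated RNA was sequenced from 3 libraries of cells given vehicle (Veh), 3 of cells given 50 ng/ml rhWnt3a (recombinant human Wnt3a, a ligand that starts Wnt signalling), and 3 of cells given 20 μM OSMI together with rhWnt3a, all named for 72 h. OSMI inhibits OGT, the enzyme that puts O-GlcNAc on proteins. The third group is named rhWnt3aOSMI in the titles, but its treatment label gives OSMI alone and states no rhWnt3a dose, and no group received OSMI alone. The labels do not say whether the libraries of a group came from separate cultures, so p-values measure the spread between these libraries, which may be technical. A single line also stands for 1 cell source.

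The libraries held 16135898 to 17583945 counted reads. Axin2, a standard target of Wnt signalling, was higher with rhWnt3a than with vehicle by 5.06 ± 0.35 on the log2 scale (SE, adjusted p = 3.67e-05) and higher with rhWnt3a and OSMI by 4.55 ± 0.35 (adjusted p = 4.78e-05). This Wnt target was thus high in the third group as well. The parts of rhWnt3a and OSMI in that cannot be told apart without a group given OSMI alone. The 7 stromal cell markers summed to 8753 to 27990 CPM (counts of a gene per 1000000 reads of the library) in each library. Those of 5 blood, 3 endothelial and 4 epithelial cell genes summed to at most 1.70, 0.43 and 0.24 CPM, with 1 of the blood and 1 of the epithelial genes at 0 throughout. The stromal sum was 21361 to 27990 CPM with vehicle, 17944 to 20737 with rhWnt3a and 8753 to 17137 with rhWnt3a and OSMI. Thy1 of this list had too few reads to be tested. Most of it came from Col1a1, Col1a2, Col3a1 and Vim. With rhWnt3a against vehicle these were at −0.53, −0.15, −0.20 and −1.10 (adjusted p = 0.437, 0.827, 0.852 and 0.00168). With rhWnt3a and OSMI against vehicle they were at −1.31, −0.73, −2.19 and −1.83 (adjusted p = 0.0241, 0.0705, 0.00369 and 9.11e-05). Pdgfra and Pdgfrb of the same list were at −0.48 ± 0.30 and −0.13 ± 0.29 in the latter comparison (adjusted p = 0.319 and 0.784). The sum of 5 fat-cell markers was 63.3 to 82.1 CPM with vehicle, 32.7 to 43.7 with rhWnt3a and 41.7 to 44.5 with rhWnt3a and OSMI. Of these 5, 3 were tested. With rhWnt3a against vehicle Pparg was at −1.73 ± 0.14 and Fabp4 at −2.49 ± 0.32 (adjusted p = 8.8e-05 and 9.72e-04). Cebpa was not lower (0.03 ± 0.17, adjusted p = 0.952). Of 5 osteoblast markers, Runx2 alone had enough reads to be tested, at 44.5 to 57.9 CPM with vehicle and 66.6 to 95.8 with rhWnt3a and OSMI (0.56 ± 0.19, adjusted p = 0.0758), and the other 4 were at or below 0.51 CPM. The sum of 3 muscle markers was 2.74 to 3.56 CPM with vehicle and 0.42 to 0.57 with rhWnt3a and OSMI, nearly all of it from Des (−2.61 ± 0.28, adjusted p = 2.93e-04). Their part in the results below was not tested.

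The TCA cycle oxidizes the acetyl group of acetyl-CoA in the mitochondrial matrix and passes the electrons to NAD and FAD for respiration. Citrate synthase (Cs) opens the cycle. Isocitrate is then oxidized either by the NAD-dependent enzyme built from the subunits Idh3a, Idh3b and Idh3g, or by IDH2, which reduces NADP instead. Ogdh is the E1 component of the 2-oxoglutarate dehydrogenase complex, Sucla2 the ADP-forming β subunit of succinyl-CoA ligase, Fh1 fumarase, and Mdh2 the malate dehydrogenase that closes the cycle. Bone-forming cells given Wnt ligands are known for raised aerobic glycolysis, and the 3 groups allow the mRNA of the genes downstream of pyruvate to be compared under the same treatments.

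The bases in front of 3 of the genes are shown because these genes behaved differently: Idh2 changed with treatment, Fh1 varied between replicates together with several other genes of the cycle, and Ogdh varied the opposite way. They are RefSeq sequence of build GRCm38.p6, 5′ to 3′ on the strand of the gene, and stop where the outermost annotated transcript starts. Capitals mark a CCAAT box (CCAAT) or a GC box (GGGCGG), read on either strand.
Idh2, chr7:80115393-80115600, minus strand: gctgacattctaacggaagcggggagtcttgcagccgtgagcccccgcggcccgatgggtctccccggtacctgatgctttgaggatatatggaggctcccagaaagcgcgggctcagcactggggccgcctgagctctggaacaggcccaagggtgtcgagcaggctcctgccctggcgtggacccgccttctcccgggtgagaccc
Fh1, chr1:175625636-175625885, minus strand: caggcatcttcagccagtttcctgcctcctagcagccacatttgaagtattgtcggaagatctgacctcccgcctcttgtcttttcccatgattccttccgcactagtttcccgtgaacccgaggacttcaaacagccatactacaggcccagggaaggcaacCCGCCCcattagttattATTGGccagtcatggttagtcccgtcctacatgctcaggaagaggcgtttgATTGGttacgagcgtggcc
Ogdh, chr11:6291347-6291596, plus strand: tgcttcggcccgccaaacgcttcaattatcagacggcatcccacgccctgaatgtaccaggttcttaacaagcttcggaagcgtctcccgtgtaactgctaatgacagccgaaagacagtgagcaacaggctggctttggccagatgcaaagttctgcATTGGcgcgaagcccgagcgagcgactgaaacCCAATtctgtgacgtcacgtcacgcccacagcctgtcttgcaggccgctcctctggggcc
The shown stretch before Idh2 held none of the motifs searched, although its whole window, which runs past this stretch into the gene, held 1 CCAAT box and 2 GC boxes. The stretch before Fh1 held 2 CCAAT boxes and 1 GC box, and that before Ogdh held 2 CCAAT boxes, with 1 GC box later in its window. RefSeq windows of 250 bases before to 50 bases after the start were at hand for 8 of the 9 genes, all but Idh3a. In these windows, CCAAT occurred in 5 of 8, that of Idh2 included (37.4% of all 32851 windows), GGGCGG in 6 of 8, again with that of Idh2 (35.7%), the ETS core CCGGAAG in those of Idh3b and Idh3g (8.86%), and the NRF1 core TGCGCA in that of Mdh2 (7.76%). The E box CACGTG (7.15% of all windows) and the TCF/LEF motif CTTTGAT (3.73%) were found in 0 of 8. The matches describe letters in these windows and are not evidence of binding.

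Levels of different genes were compared as FPKM, the deposited value that scales counts by gene length and to 1000000 reads. With vehicle, Idh2 had the highest level of the 9 genes, at 80.4 ± 2.27 FPKM (SD, n = 3). Mdh2 (61.8 ± 12.8) and Cs (49.7 ± 1.70) followed, and the ranges of these 3 genes did not overlap. Fh1, Ogdh, Idh3g, Idh3b and Sucla2 lay between 25.0 and 14.1 FPKM on average, and each overlapped the next in this order. Idh3a, the catalytic subunit of the NAD-dependent enzyme, was lowest at 5.80 ± 1.07.

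The order at the top differed between groups. With rhWnt3a, Mdh2 (65.1 ± 13.5 FPKM), Cs (53.8 ± 2.35) and Idh2 (53.5 ± 10.6) overlapped. With rhWnt3a and OSMI, Cs was highest at 57.6 ± 7.50 FPKM and overlapped Mdh2 at 51.0 ± 8.95, while Idh2 came next at 36.2 ± 2.85 and overlapped neither of its neighbours. Idh3a remained lowest in all 3 groups, at 6.01 ± 0.74 FPKM with rhWnt3a and 6.08 ± 1.16 with rhWnt3a and OSMI.

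Within a gene, libraries were compared as CPM, counts per 1000000 reads of the library, with library totals scaled by TMM. Idh2 (ENSMUSG00000030541, GRCm38 chr7:80094846-80115392, minus strand) had 206, 217 and 209 CPM in Veh replicates 1 to 3. It had 124, 172 and 128 CPM with rhWnt3a, and 101, 100.2 and 84.7 CPM with rhWnt3a and OSMI. The groups did not overlap in any of the 3 comparisons, and rhWnt3a replicate 2 lay well above the other rhWnt3a libraries. Fewer cells that express the gene and less of its RNA per cell cannot be told apart in such bulk samples.

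Fold changes were tested by edgeR's quasi-likelihood test (two-sided) on all 9 libraries, and a gene was called when its Benjamini-Hochberg adjusted p was under 0.05 and its log2 fold change was beyond 0.5 in size. The log2 fold change of Idh2 was −0.58 ± 0.15 (SE) with rhWnt3a against vehicle (adjusted p = 0.0413), which was called. It was −0.57 ± 0.15 when OSMI was added to rhWnt3a (adjusted p = 0.0643), which was not called. Between rhWnt3a with OSMI and vehicle it was −1.15 ± 0.15 (95% interval −1.49 to −0.80, adjusted p = 0.00106), a 2.21-fold lower level.

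The call against vehicle in the group with OSMI was kept in all 16 other ways of processing, with log2 fold changes from −1.16 to −1.06. The 16 include a fit without 3 libraries, described below, that was chosen after seeing the data. The call of rhWnt3a against vehicle was kept in 7 of 16. It was lost when any 1 of the 3 vehicle libraries, rhWnt3a replicate 1 or 3, or rhWnt3aOSMI replicate 1 or 2 was left out (adjusted p from 0.0662 to 0.227, log2 fold changes from −0.60 to −0.46). Without rhWnt3a replicate 2 the log2 fold change was −0.74 (adjusted p = 0.0085), and that of adding OSMI was then −0.38 (adjusted p = 0.182).

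**Figure D1:**
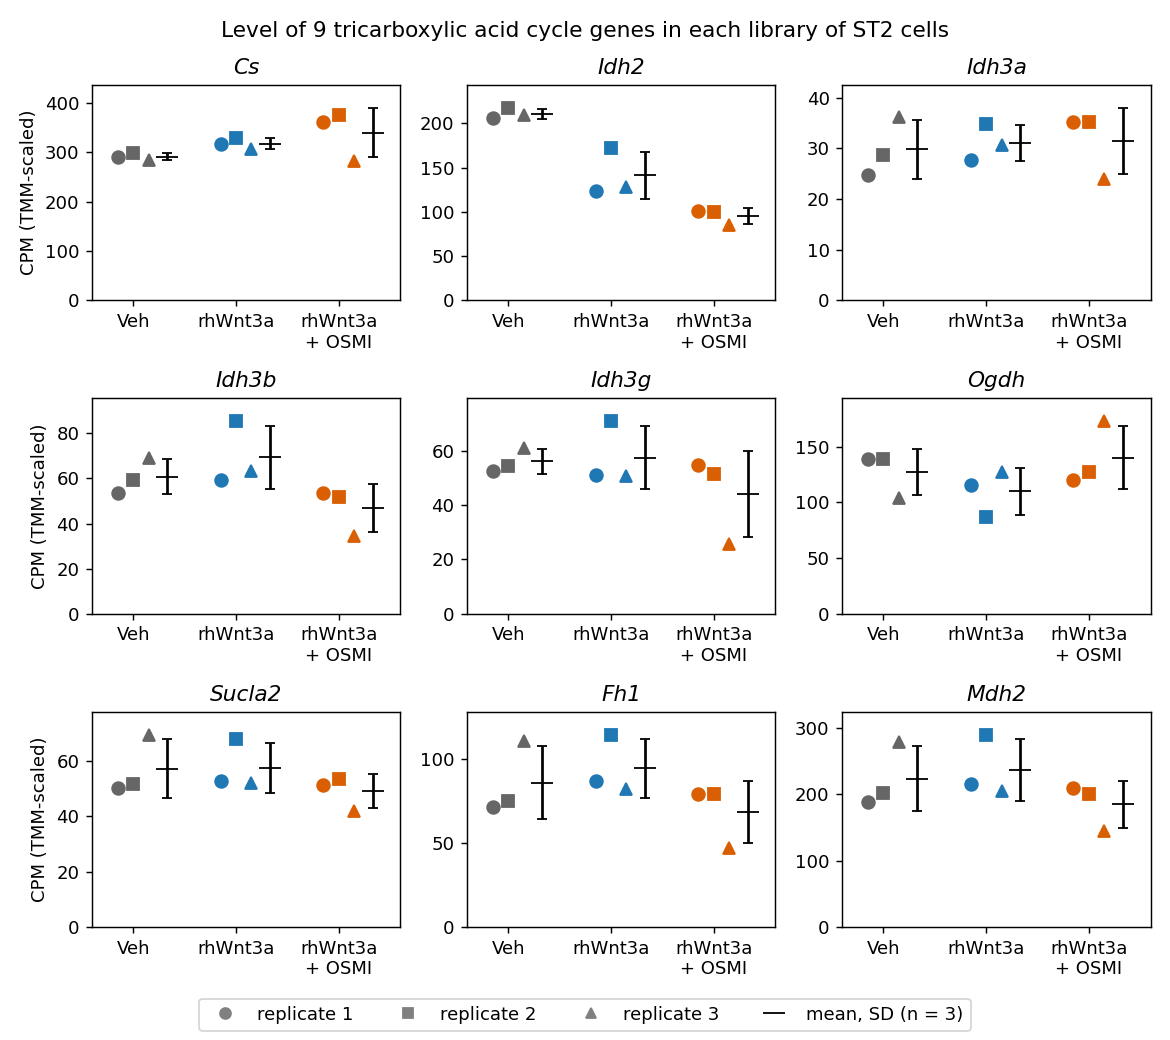
Level of each cycle gene in every library, in CPM on linear axes from 0, with marker shape for the replicate number and the mean ± SD of 3 libraries beside each group. Idh2 is the gene in which the 3 groups separate, at 206 to 217, 124 to 172 and 84.7 to 101 CPM, while in Sucla2, Fh1 and Mdh2 the scatter within groups is as large as the distance between them.

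Among the 9 genes, 1 was called with rhWnt3a against vehicle (Idh2, lower), against 8.78% of all tested genes called in either direction and 5.86% called lower. When OSMI was added to rhWnt3a, 0 of 9 were called by edgeR, against 4.74% in either direction and 3.05% lower. Of the 9 genes, 2 had an unadjusted p under 0.05 with that fold (Idh2 and Idh3b), and DESeq2 called 1. Of all 14004 tested genes, 2271 had such a p with that fold and DESeq2 called 1289. Between rhWnt3a with OSMI and vehicle, 1 of 9 was called (Idh2, lower), against 14.2% and 9.34%. With these shares of all genes, about 1 call among 9 genes is near the background in the comparisons with vehicle.

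The other 8 genes differed little between rhWnt3a and vehicle. Their log2 fold changes ran from −0.21 (Ogdh) to 0.19 (Idh3b), with adjusted p from 0.674 to 0.989, and their 95% intervals lay within −0.66 and 0.68. Larger changes fell outside these intervals, and smaller ones could not be told from no change. Of the 9 genes, 7 were higher and 2 lower with rhWnt3a (median 0.06, against 0.04 for all tested genes, of which 54.6% were higher). The 2 groups did not overlap for 2 genes, Cs (higher) and Idh2 (lower), where 26.4% of all tested genes did not overlap.

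**Figure D2:**
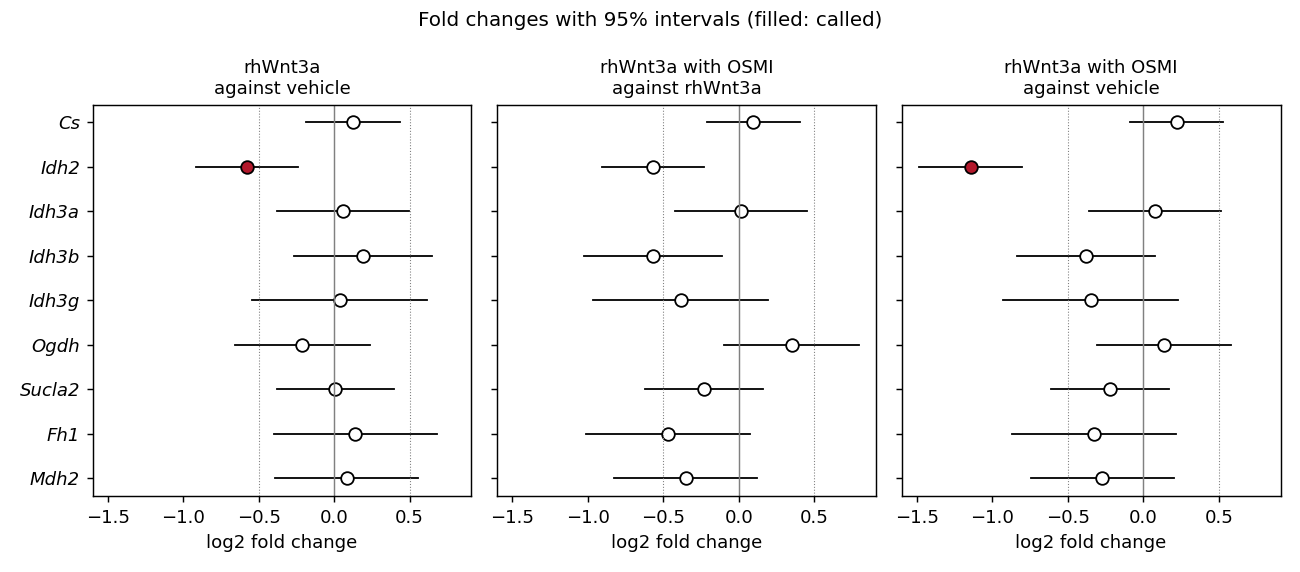
Log2 fold change of each cycle gene in the 3 comparisons, with 95% intervals from the edgeR fit, filled where the gene was called and with dotted lines at 0.5 in either direction. Idh2 is filled in both comparisons with vehicle, at −0.58 and −1.15, and the intervals of the other genes include 0 except that of Idh3b when OSMI was added to rhWnt3a (−1.03 to −0.11).

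Cs, which makes citrate from oxaloacetate and acetyl-CoA, had 291, 299 and 283 CPM with vehicle, 316, 329 and 307 with rhWnt3a, and 360, 375 and 282 in the group with OSMI. The rhWnt3a libraries were all slightly above the vehicle libraries, and the third group spanned both. Its log2 fold change was 0.12 ± 0.14 with rhWnt3a (adjusted p = 0.732) and 0.22 ± 0.14 with rhWnt3a and OSMI against vehicle (adjusted p = 0.317).

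Idh3b, a regulatory subunit of the NAD-dependent isocitrate dehydrogenase, had 53.6, 59.4 and 69.1 CPM with vehicle, 59.4, 85.3 and 63.2 with rhWnt3a, and 53.7, 51.9 and 34.4 in the group with OSMI. All 3 libraries with OSMI lay below all 3 with rhWnt3a alone. The log2 fold change of adding OSMI was −0.57 ± 0.21, which did not pass the adjustment over all genes (adjusted p = 0.141 by edgeR). Its exons share 0.146% of their bases with Nop56 on the other strand, and the strandedness of the libraries is not given in the sources used here.

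Idh3g, also a regulatory subunit, was at 52.7, 54.5 and 61.2 CPM with vehicle, 51.1, 70.9 and 50.6 with rhWnt3a, and 55.0, 51.5 and 25.8 in the group with OSMI, and replicate 3 of the last group stood far below the rest. Its log2 fold change of adding OSMI was −0.39 ± 0.26 (adjusted p = 0.397). Idh3a was at 24.7, 28.7 and 36.1 CPM with vehicle, 27.7, 34.8 and 30.7 with rhWnt3a, and 35.2, 35.2 and 23.9 in the group with OSMI. These 3 groups overlapped throughout, and the log2 fold changes of Idh3a lay between 0.02 and 0.08 (adjusted p from 0.822 to 0.966).

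Idh2 was set against each subunit gene of the NAD-dependent isocitrate dehydrogenase within each library. The ratio of Idh2 to Idh3a in FPKM was 16.3, 14.9 and 11.3 with vehicle, 8.75, 9.68 and 8.16 with rhWnt3a, and 5.63, 5.57 and 6.95 in the group with OSMI. The ratio to Idh3b was 5.08, 4.84 and 4.001 with vehicle, 2.76, 2.66 and 2.67 with rhWnt3a, and 2.49, 2.55 and 3.25 in the group with OSMI. That to Idh3g was 4.08, 4.16 and 3.56, then 2.53, 2.53 and 2.63, and then 1.92, 2.03 and 3.43 in the same order of groups. Vehicle libraries lay above all others in each of the 3 ratios, while rhWnt3a with and without OSMI overlapped for Idh3b and Idh3g and not for Idh3a. No test is attached to these ratios because they were picked with the values known, and an exact permutation test of 3 against 3 libraries cannot give a p below 0.1.

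Fh1, the enzyme that turns fumarate into malate, had 71.6, 75.3 and 111 CPM with vehicle, 87.2, 115 and 82.3 with rhWnt3a, and 79.1, 79.0 and 47.3 in the group with OSMI. The libraries with OSMI lay just below those with rhWnt3a alone but overlapped the vehicle libraries. Adding OSMI gave −0.47 ± 0.24 on the log2 scale (adjusted p = 0.282).

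Mdh2 was at 189, 202 and 279 CPM with vehicle, 215, 290 and 204 with rhWnt3a, and 210, 201 and 144 in the group with OSMI. Vehicle replicate 3 and rhWnt3a replicate 2 were high and rhWnt3aOSMI replicate 3 was low, the same libraries as for Fh1. The log2 fold change of adding OSMI was −0.35 ± 0.21 (adjusted p = 0.348). Sucla2 showed the same 3 libraries apart, with 50.2, 51.9 and 69.6 CPM with vehicle, 52.6, 67.8 and 52.2 with rhWnt3a, and 51.5, 53.6 and 42.1 in the group with OSMI (log2 fold change −0.23 ± 0.17, adjusted p = 0.451).

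Ogdh ran the other way in these libraries. It had 139, 139 and 104 CPM with vehicle, 116, 86.7 and 127 with rhWnt3a, and 120, 127 and 173 in the group with OSMI, so the libraries that were high for Mdh2 were low for Ogdh. Adding OSMI gave 0.35 ± 0.20 on the log2 scale (adjusted p = 0.324), and the groups overlapped.

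When OSMI was added to rhWnt3a, 6 of the 9 genes were lower and 3 higher, with a median of −0.35 against −0.01 for all tested genes, of which 48.5% were higher. The groups did not overlap for 3 genes (Idh2, Idh3b and Fh1, all lower), and 33.7% of all tested genes did not overlap. Between rhWnt3a with OSMI and vehicle, 6 were lower and 3 higher (median −0.27, against −0.01 for all tested genes), and Idh2 alone did not overlap, where 38.8% of all tested genes did not.

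Replicates differed in a way that several of the cycle genes shared. The main axis of differences within groups, computed from the other tested genes, held 54.8% of the variance within groups. Vehicle replicate 3 (score 0.49), rhWnt3a replicate 2 (0.49) and rhWnt3aOSMI replicate 3 (−0.43) stood apart on it. Scores are measured from the mean of each group, so equal scores in different groups do not mean equal positions.

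Over the 9 libraries, the deviation of a gene from its group mean was correlated with this score at r = 0.99 for Sucla2 and Mdh2, 0.96 for Fh1, 0.94 for Idh3b, 0.92 for Idh3a and 0.82 for Idh3g. It was 0.76 for Idh2, 0.53 for Cs and −0.97 for Ogdh. These coefficients are descriptions of 9 libraries. Of all tested genes, 0.136% had a higher r than Sucla2, 0.214% than Mdh2, 2.81% than Fh1, 5.69% than Idh3b, 8.2% than Idh3a and 97.4% than Ogdh. The shares for Idh3g (20.1%), Idh2 (25%) and Cs (36%) show that a coefficient of their size was common among all genes. The axis also went with gene length. The top decile of loadings had a median gene length of 1546.5 bases and the bottom decile 5423, with r = −0.35 between loading and log2 length over 13995 genes. Ogdh (5456 bases) and Cs (5779) are long and Idh2 (2588) and Idh3g (2701) short, but Idh3a (5072) is long and had a positive r as well. What the axis is was not tested.

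**Figure D3:**
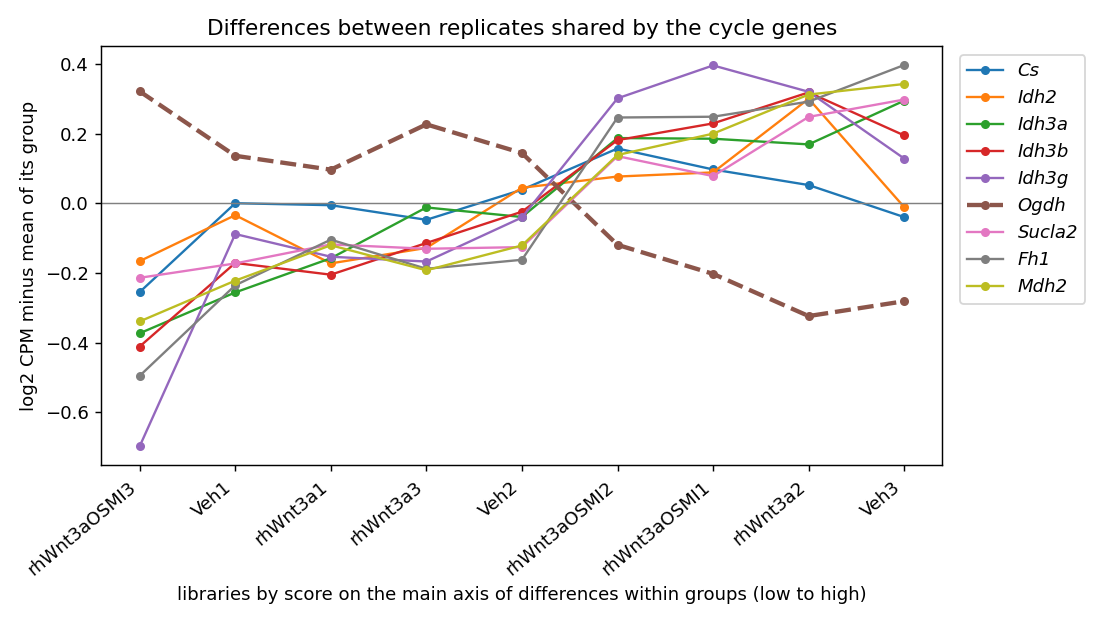
Deviation of each cycle gene from the mean of its group, in log2 CPM, in the 9 libraries ordered by their score on the main axis of differences within groups. The gene lines run upward to the right with r from 0.53 (Cs) to 0.99 (Sucla2), and that of Ogdh (dashed) runs downward with r = −0.97.

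The axis touched the comparison of rhWnt3a with and without OSMI. When the 3 libraries that stood apart were left out, the median of the 9 genes in this comparison was 0.00. Idh2 was then at −0.33 ± 0.07 (SE), Idh3b at −0.22, Fh1 at −0.10 and Mdh2 at −0.03, each nearer to 0 than with all libraries, and Sucla2 (0.00) and Idh3g (0.06) were no longer negative. Ogdh was at 0.02, where all libraries gave 0.35. Cs and Idh3a moved away from 0, to 0.235 and 0.26, where all libraries gave 0.10 and 0.02. Leaving out the high rhWnt3a library and the low library with OSMI moves genes with a positive r toward higher values with OSMI by construction, just as keeping them moves these genes the other way. The size of the difference with OSMI in genes that followed the axis therefore depended on these libraries, Idh2 included.

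Against vehicle, Idh2 without the 3 libraries differed by −1.11 ± 0.06 with rhWnt3a and OSMI, close to the −1.15 of all libraries, and by −0.78 ± 0.06 with rhWnt3a, where all libraries gave −0.58. Leaving out libraries for standing apart narrows the spread by construction, so the SE of these fits is too small.

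Further enzymes of the cycle were read from 8 genes (Dlst, Dld, Suclg1, Suclg2, Sdha, Sdhb, Sdhc and Sdhd). By edgeR or by DESeq2, 0 of 8 were called in each comparison. Of all tested genes, edgeR called 8.78% with rhWnt3a against vehicle and 4.74% with OSMI added to rhWnt3a. It called 14.2% with rhWnt3a and OSMI against vehicle. In the comparisons with vehicle, 0 of 8 had an unadjusted p under 0.05. With OSMI added to rhWnt3a, their log2 fold changes ran from −0.83 to −0.07, with a median of −0.39. Of these, 1 had an unadjusted p under 0.05 in that comparison. This was Sdhd, a membrane anchor of succinate dehydrogenase, at −0.83 ± 0.31 (adjusted p = 0.153). Of all 14004 tested genes, 2271 had such an unadjusted p there with the fold threshold.

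The steps that feed pyruvate into the cycle were read from 14 genes for pyruvate import, pyruvate dehydrogenase and its control. With rhWnt3a against vehicle edgeR called 1 of 14, against 8.78% of all tested genes, and DESeq2 called 3 (Pcx, Pdk1 and Pdp1). Of all 14004 tested genes, DESeq2 called 1547 there. The call of edgeR was Pdk1, a kinase that switches pyruvate dehydrogenase off, at 22.9, 21.4 and 20.2 CPM with vehicle, 48.2, 44.0 and 49.5 with rhWnt3a, and 19.5, 17.8 and 22.4 in the group with OSMI. It rose by 1.14 ± 0.13 (adjusted p = 5.55e-04) with rhWnt3a and was lower by −1.25 ± 0.13 (adjusted p = 0.00171) with OSMI. In that comparison Pdk1 was the single call of edgeR among the 14, against 4.74% of all tested genes, while DESeq2 called 3 (Pcx, Pdk4 and Pdk1). There DESeq2 called 1289 of all 14004 tested genes.

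Between rhWnt3a with OSMI and vehicle, 4 of the 14 were called by edgeR and by DESeq2, 3 higher and 1 lower. By edgeR 14.2% of all tested genes were called. Pcx, which makes oxaloacetate from pyruvate and so refills the cycle, had a mean of 174 ± 30.2 CPM with vehicle, 271 ± 8.32 with rhWnt3a and 435 ± 112 with rhWnt3a and OSMI (SD, n = 3). It rose by 1.32 ± 0.20 (adjusted p = 0.00197). Pdp1, a phosphatase that switches pyruvate dehydrogenase on, rose by 1.46 ± 0.24 (adjusted p = 0.00321), from 12.5 ± 2.37 to 34.4 ± 10.6 CPM. Of the kinases that oppose it, Pdk4 rose by 0.72 ± 0.14 (adjusted p = 0.00878) and Pdk3 was lower by −0.84 ± 0.15 (adjusted p = 0.00538). The medians of the list were 0.11, −0.04 and −0.03 in the 3 comparisons, with 11, 5 and 7 of the 14 genes higher.

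Of 17 genes for cytosolic counterparts, shuttles and anaplerosis, 1 was called with rhWnt3a against vehicle, against 8.78% of all tested genes. With OSMI added to rhWnt3a 0 were called, against 4.74%. There 2 genes, Idh1 and Me3, had an unadjusted p under 0.05, and DESeq2 called 1, Idh1. Of all 14004 tested genes, 2271 had such a p with the fold threshold and DESeq2 called 1289. With rhWnt3a and OSMI against vehicle 3 were called, all lower. Of all tested genes, 14.2% were called in that comparison and 9.34% were called lower. Idh1, the NADP-dependent isocitrate dehydrogenase of the cytosol and the closest counterpart of Idh2, had 167, 132 and 128 CPM with vehicle, 117, 157 and 126 with rhWnt3a, and 94.3, 102 and 68.5 in the group with OSMI. The vehicle and rhWnt3a libraries overlapped (log2 fold change −0.10 ± 0.19, adjusted p = 0.865), and the libraries with OSMI lay below both. It was lower by −0.69 ± 0.19 against vehicle (adjusted p = 0.0334) and by −0.60 ± 0.19 against rhWnt3a (adjusted p = 0.102). The call of Idh1 was kept in 8 of 16 other ways of processing, and leaving out vehicle replicate 1 gave −0.55 (adjusted p = 0.118).

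Me3, the mitochondrial NADP-dependent malic enzyme, was at 7.02 ± 0.39 CPM with vehicle, 5.49 ± 1.10 with rhWnt3a and 3.68 ± 0.47 with rhWnt3a and OSMI, lower by −0.93 ± 0.20 between the last and the first (adjusted p = 0.0129). Slc25a10, the mitochondrial dicarboxylate carrier that exchanges malate and succinate for phosphate, was at 24.4 ± 5.44 CPM with vehicle. It was at 14.8 ± 2.31 CPM with rhWnt3a (−0.72 ± 0.19 against vehicle, adjusted p = 0.0424). With rhWnt3a and OSMI it was at 12.4 ± 0.60 CPM (−0.98 ± 0.19 against vehicle, adjusted p = 0.00771). Adding OSMI to rhWnt3a gave −0.26 ± 0.19 (adjusted p = 0.438), which was not called. The call of rhWnt3a against vehicle was kept in 8 of 16 other ways of processing. That of rhWnt3a with OSMI against vehicle was kept in 16 of 16.

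Genes for mitochondrial content and for the making of mitochondria were read as mRNA, which does not measure the amount of the organelle. Of 17, 16 were tested, and Ppargc1a had too few reads. In the comparisons of rhWnt3a with vehicle and of OSMI added to rhWnt3a, 0 of 16 were called by edgeR and 0 by DESeq2. In these 1 and 0 had an unadjusted p under 0.05, and edgeR called 8.78% and 4.74% of all tested genes. By edgeR 1 of 16 was called with rhWnt3a and OSMI against vehicle, against 14.2% of all tested genes. This was Lonp1, a protease of the matrix, higher by 0.60 ± 0.16 (adjusted p = 0.0317), a call kept in 8 of 16 other ways of processing. DESeq2 called 2, Lonp1 and Vdac2, a channel of the outer membrane that was at −0.73 ± 0.25 by edgeR (adjusted p = 0.0787). The medians were 0.17, −0.09 and 0.08 in the 3 comparisons.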

How the data were processed

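Messenger RNA of ST2 cells was sequenced in 9 libraries, 3 per group, grouped by the sample titles. The authors deposited 1 table with the count of reads per gene and library, whole numbers without normalization, and FPKM values, the counts scaled by library size and gene length. The submitters' processing notes name fastp, HISAT2 2.0.5, featureCounts 1.5.0-p3 and mm10, and strandedness and the annotation release are not given in the sources used here. The table also has 15 columns with the authors' fold changes, p-values and group means, which were not used.

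Counts were analysed with edgeR 4.0.16 in R 4.3.3. Genes were filtered by filterByExpr (minimum count 10, minimum total 15) and scaled by TMM, and all 9 libraries entered glmQLFit on 3 group means without covariates, followed by the two-sided glmQLFTest with Benjamini-Hochberg adjustment over 14004 genes. Fold changes of lists are medians over tested genes. CPM is the count divided by the TMM-scaled library total. On the log2 scale, used for the axis, 2 was the prior count. The common dispersion was 0.0452, and 3 counts correspond to 0.183 CPM in vehicle replicate 1. The fit was tested on simulated data.

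The 9 cycle genes and all lists were chosen with earlier results of these data known. All 9 cycle genes were reported, and of the other lists the called genes, with Sdhd and non-called values added after they were seen. From the list of further cycle enzymes 1 gene is not reported here, and the counts, range and median of that list leave it out. The most alike genes were the 5 of 5807 with an average log2 CPM of at least 5 that had the highest r with the mean of the centred cycle genes. Gene coordinates of all 9 were the same in GENCODE M21 (GRCm38). BLAST 2.17.0 found no other gene at least 97% identical over 100 bases to their transcripts. No pair of libraries was identical. Alternatives were DESeq2 1.42.0, edgeR with RLE (relative log expression) size factors in place of TMM, other count filters and other thresholds. The rest were only the libraries compared, a replicate block, and each library left out. Leaving out the 3 libraries that stood apart was chosen after seeing the data, and it is counted among the 16 alternatives given for single genes.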

Additional observations from a re-analysis of the deposited data

How the results depend on the processing

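Of the calls of Idh2, that between rhWnt3a with OSMI and vehicle was kept in 16 of 16 alternatives, that between rhWnt3a and vehicle in 7 of 16, and that of adding OSMI appeared in 1 of 16 (DESeq2, −0.56, adjusted p = 0.0109). The number of cycle genes called with rhWnt3a against vehicle (1) was 0 with only the 6 libraries compared, 0 with the replicate block, and 0 to 1 when 1 library was left out. When OSMI was added to rhWnt3a (0), it was 2 by unadjusted p with the fold threshold, 1 by DESeq2 and 0 to 0 with 1 library left out. Between rhWnt3a with OSMI and vehicle it was 1 to 1 with 1 library left out. The median of the cycle genes ranged from −0.06 to 0.18, −0.45 to −0.13 and −0.36 to −0.08 in the 3 comparisons when 1 library was left out, and that of adding OSMI was 0.0001757 without the 3 libraries that stood apart, a choice made after seeing the data.

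Over all tested genes, the 1230 calls with rhWnt3a against vehicle became 2155 by unadjusted p, 809 with the replicate block, 2557 without the 3 libraries, and 716 to 1506 with 1 library left out. The 664 calls of adding OSMI became 2271 by unadjusted p, 1481 with no count filter, 1289 by DESeq2, 345 with only the 6 libraries compared, 233 with the replicate block, 1789 without the 3 libraries, and 203 to 764 with 1 library left out. The 1986 calls with rhWnt3a and OSMI against vehicle became 3186, 1297, 3351 and 1218 to 2328 by unadjusted p, with the block, without the 3 libraries and with 1 left out. The cause of these shifts was not tested.

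Libraries with the same replicate number did not deviate alike throughout. Whether a number marks a shared culture or batch is not stated. The coefficients below cannot decide it, because a library of each group stood apart (Veh3, rhWnt3a2 and rhWnt3aOSMI3). Measured from its group mean, the library of one group was correlated with that of the same number in the other group at 0.44, −0.49 and −0.49 for rhWnt3a and vehicle, −0.31, 0.37 and 0.33 for rhWnt3a with and without OSMI, and −0.32, −0.20 and −0.41 for the outer groups.

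Small fold changes turned their sign. With rhWnt3a against vehicle, that of Sucla2 (0.01) was −6.262e-05 with RLE size factors, −0.008642 with no count filter, −0.000146 by DESeq2 and −0.016 with only the 6 libraries compared. Ranges with 1 library left out included 0 for Sucla2 (−0.1258 to 0.18), Idh3a (−0.06184 to 0.22), Idh3g (−0.1412 to 0.15), Fh1 (−0.01982 to 0.37) and Mdh2 (−0.09039 to 0.28). They also did for Idh3a with OSMI added to rhWnt3a (−0.04927 to 0.18), and against vehicle for Idh3a (−0.02791 to 0.24) and Ogdh (−0.03631 to 0.28). Without the 3 libraries, Idh3g was −0.11 with rhWnt3a against vehicle. In that setting Idh3g was 0.06071 and Sucla2 0.0001757 with OSMI added, and Ogdh was −0.21, Sucla2 0.003633, Fh1 0.0678 and Mdh2 0.03262 with rhWnt3a and OSMI against vehicle. None of these cycle genes was called in any of the alternatives.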

Other observations

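The genes whose level over the 9 libraries was most like the mean of the 9 cycle genes were Mydgf (r = 0.996), St13 (0.993), Atp6v0b (0.993), Chmp2a (0.991) and Cdk4 (0.991), of 5807 genes compared. Mydgf encodes a secreted growth factor, St13 a co-chaperone of Hsp70, Atp6v0b a subunit of the vacuolar proton pump, Chmp2a a component of the ESCRT-III complex, and Cdk4 a cyclin-dependent kinase. The coefficients describe 9 libraries with a shared axis of differences within groups.

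Among single cycle genes over the 9 libraries, the level of Mdh2 was correlated at r = 0.985 with Fh1, at 0.980 with Sucla2 and at −0.965 with Ogdh, again as a description of these libraries.

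The genes of the enzymes that add and remove O-GlcNAc were both higher with rhWnt3a and OSMI than with vehicle. Ogt, the transferase that OSMI inhibits, was higher by 0.64 ± 0.17 on the log2 scale (SE, adjusted p = 0.0348). It was at 440.1 ± 72.3 CPM with vehicle and 685 ± 70.6 with rhWnt3a and OSMI (SD, n = 3). That call was kept in 8 of 16 other ways of processing. With rhWnt3a alone Ogt was at 604 ± 82.2 CPM, above all vehicle libraries (0.46 ± 0.17, adjusted p = 0.165). Adding OSMI to rhWnt3a gave 0.18 ± 0.17 (adjusted p = 0.544), with overlapping libraries. Mgea5, which encodes the hydrolase OGA, was higher by 0.90 ± 0.15 (adjusted p = 0.00356), at 138 ± 27.8 and 259 ± 13.2 CPM, and was called in 16 of 16. With rhWnt3a alone Mgea5 was at 175 ± 2.67 CPM (0.34 ± 0.15 against vehicle, adjusted p = 0.24). Adding OSMI to rhWnt3a gave 0.56 ± 0.15 (adjusted p = 0.0661), called by DESeq2 and not by edgeR.

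Of 9 Wnt targets, 6 were tested and 4 were called with rhWnt3a against vehicle, all higher, against 8.78% of all tested genes. Beside Axin2 these were Lef1 (2.28 ± 0.43, adjusted p = 0.00842), Tcf7 (2.75 ± 0.56, adjusted p = 0.013) and Nkd2 (1.31 ± 0.20, adjusted p = 0.00233). Not called in that comparison were Notum (2.28 ± 0.67, adjusted p = 0.0672) and Znrf3 (0.05 ± 0.27, adjusted p = 0.958). With rhWnt3a and OSMI against vehicle, 2 were called (Axin2 and Nkd2), against 14.2% of all tested genes. With OSMI added to rhWnt3a 0 were called by edgeR, against 4.74%. There DESeq2 called 1 (Lef1), and 2 had an unadjusted p under 0.05 (Lef1 and Notum). Of all 14004 tested genes, DESeq2 called 1289 there, and 2271 had such a p with the fold threshold.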
